A study of Rattus norvegicus with 9 samples.

Results

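The genes described here encode the proteins that cut introns out of pre-mRNA and those that coat it: serine and arginine rich (SR) splicing factors, heterogeneous nuclear ribonucleoproteins (hnRNPs), proteins of the small nuclear ribonucleoprotein particles (snRNPs) and the Prp factors. They were picked by a rule on gene names, set with earlier results of these data known. Every probe of the array other than controls was taken whose gene name in the scanner files began with Sfrs, Srsf, Hnrp, Hnrnp, Snrp, Sf3a, Sf3b, Prpf or U2af. The rule found 49 of the 35658 gene names on the array, carried by 88 of its 41012 probes. All 88 could be tied to a current symbol, and 27 of the genes now bear another name than in the files. The RNA came from peripheral blood mononuclear cells (PBMC), chiefly lymphocytes and monocytes, which were separated on Ficoll from blood drawn from fed male Wistar rats at 6 months of age. The 4 control rats ate standard chow, and the 5 cafeteria rats had an energy-dense, fatty cafeteria diet beside the chow for 4 months, from 2 months of age. On each array the RNA of a single animal, in Cy5, competed with a reference pool of all groups in Cy3, and 1 further control animal was dropped by the authors because it gave little RNA. The comparison asks how blood cell transcripts differ between obese and lean rats, here for the splicing machinery.

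Splicing is carried out by the spliceosome, which assembles anew on each intron. The U1 particle binds the 5′ splice site, U2AF and the U2 particle bind the 3′ end of the intron and its branch point, and the U4, U5 and U6 particles then join to form the active centre. SR proteins mostly promote the use of nearby exons, while many hnRNPs repress it, so that the balance of these families sets which isoforms a cell makes. Lymphocytes change the splicing of many transcripts when they are activated, the surface phosphatase CD45 being the textbook case. Many genes of these families also make transcripts of several forms, some with an exon that leads to decay of the mRNA, so that probes at different places in 1 gene need not report the same molecules.

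The values are log2 ratios of the animal over the reference, and a log2 fold change is the cafeteria mean minus the control mean of these ratios. All 88 probes had Cy5 signal well above background on all 9 arrays, none was saturated, and 1 value was missing. Over the spots other than controls, Cy5 was well above background for 58.8% to 66.7% on each array. Defining transcripts of T cells, B cells, monocytes and natural killer cells were measured, as the label PBMC asks. Of 8 lists of cell type markers, the 6 erythroid genes tested differed most: their mean log2 ratio was -1.14 to -0.70 in control and -0.61 to -0.017 in cafeteria arrays, without overlap. The mean of the 7 natural killer genes was -0.43 to -0.087 in control and -0.24 to 0.65 in cafeteria arrays, and that of the 9 T cell genes -0.28 to 0.041 and -0.53 to -0.042. The ranges of the 7 lists other than the erythroid one overlapped. The neutrophil transcripts Ltf, Mmp8 and Mpo and the monocyte transcript Cd163 were not well above background. The part of these cell differences in the results below was not tested, and in such mixed cells fewer cells of a type and less RNA per cell cannot be told apart.

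No splicing factor or hnRNP probe passed the adjusted threshold. In limma, adjusted by Benjamini-Hochberg over the 25798 probes tested, 0 of the 88 had an adjusted p under 0.05 (background 0%), and the lowest was 0.487. At an unadjusted p under 0.05, 2 probes were higher in cafeteria animals, where the background over all probes is 1.9%, and 4 were lower, where it is 3.82%. Together these are 6.82% of the 88, beside 5.71% of all probes. The higher probes were those of Sf3a2 and Snrpb, and the lower ones included the upstream probes of Sfswap (Sfrs8 in the files) and Hnrnpr and the downstream probe of Prpf39. The groups did not overlap for 1 higher probe (background 0.895%) and 2 lower ones (background 1.26%).

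The log2 fold changes of the 88 probes ran from -0.59 to 0.28, with a median of 0.039 beside 0.0071 for all probes tested, and 59 of 88 lay above 0 (67%, beside 52.6% of all). With the slide fitted as a block the median was -0.037, beside -0.0014 for all probes. Only slide 3 (control 1, cafeteria 1) and slide 5 (control 13, cafeteria 10) held both groups. Each difference with slide as a block therefore comes from these animals alone, and the other arrays add nothing to it. The split of higher to lower probes at an unadjusted p under 0.05 rested on the scaling: it was 2 to 4 after loess, 14 to 3 with each array only centred on its median, and 15 to 3 with the authors' values, in which the median of all probes was itself shifted by 0.13. With the authors' values centred on each array's median it was 3 to 4. All probes moved as well: 6.71% were higher and 2.31% lower with median centring, 10.9% were higher and 1.87% lower with the authors' values and 1.81% were higher and 4.57% lower with these centred. Without cafeteria 1 the split was 5 to 10 (all probes 3.26% and 4.4%) and without control 13 it was 4 to 7 (all probes 2.0% and 4.21%), while the higher count fell to 1 without control 4 or without cafeteria 4, 7 or 10. Without cafeteria 1, 5 higher and 5 lower probes had groups that did not overlap, without control 13 these were 2 and 5, and without control 4, control 7 or cafeteria 4 the higher count was 2. With fewer arrays, groups without overlap are more frequent in any set of probes. The share over all probes is not given for these counts, so they say nothing particular to the splicing genes.

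**Figure D1:**
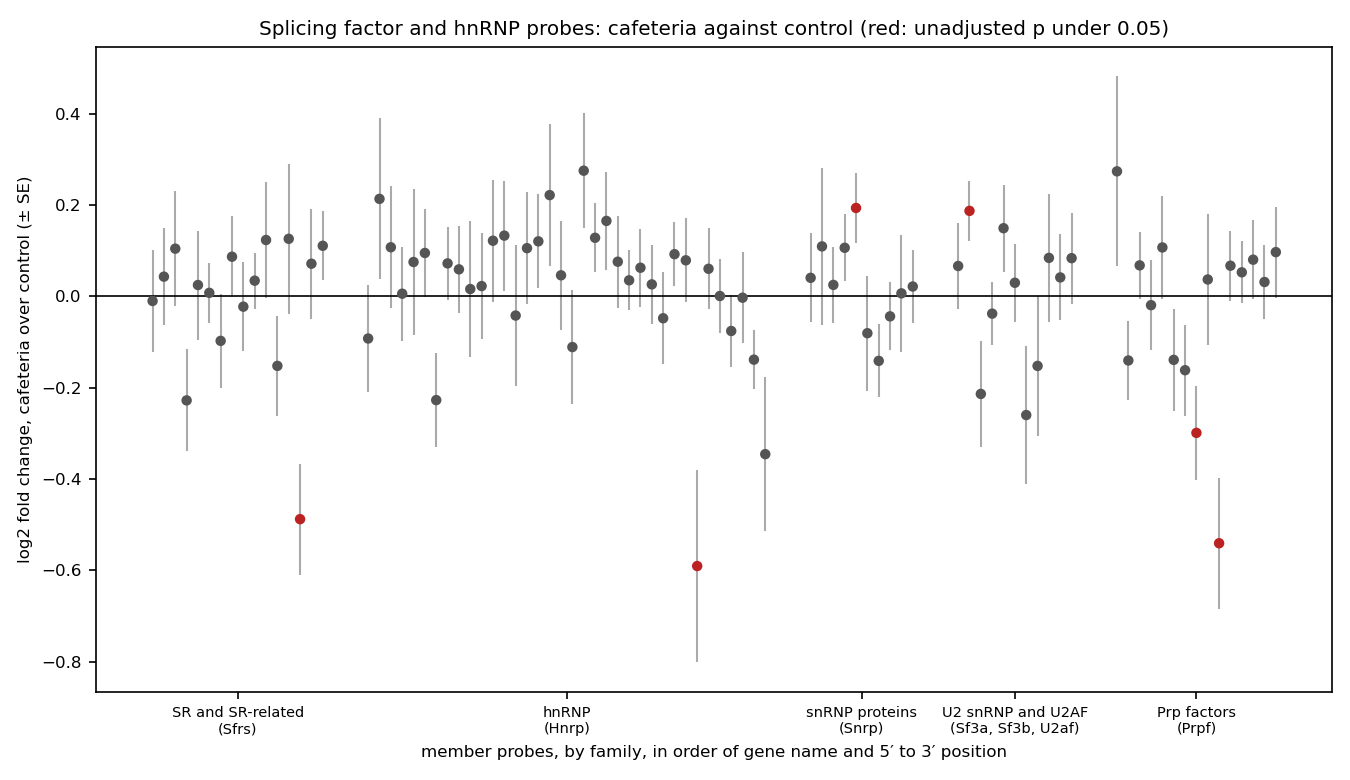
Log2 fold change (cafeteria over control, y axis) of the 88 probes, grouped by family along the x axis. Points are estimates and bars the SE from limma over 4 control and 5 cafeteria arrays, and the 6 red points have an unadjusted p under 0.05. The points run from -0.59 to 0.28, and the low points include the upstream probes of Hnrnpr at -0.59 and Sfswap at -0.49.

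Among the SR proteins and their relatives (9 genes, 16 probes), the median log2 fold change was 0.029, with 10 probes above 0 (62.5%, beside 52.6% of all probes). An unadjusted p under 0.05 was seen for 1 probe (6.25%, beside 5.71% of all). This probe reports Sfswap, an SR-related protein that represses splicing of its own pre-mRNA and carries the name Sfrs8 in the files. The upstream Sfswap probe lies at chr12:28195411-28195470 on the minus strand (build rn4, as the files give it). Its log2 ratios were 0.54, 0.31, 0.15 and 0.23 in control animals 1, 4, 7 and 13 and 0.080, -0.028, -0.16, -0.40 and -0.39 in cafeteria animals 1, 4, 7, 10 and 13. Each control was above each cafeteria animal, and cafeteria 10 and 13 were the lowest. The means were 0.31 ± 0.17 (SD, n = 4) and -0.18 ± 0.21 (SD, n = 5), a log2 fold change of -0.49 ± 0.12 (SE, 95% interval -0.76 to -0.22). In limma the unadjusted p was 0.00223 and the adjusted p 0.487. The difference was -0.46 and -0.64 within the slides that held 1 animal of each group. With slide as a block it was their mean, -0.55, which is no separate evidence. The downstream Sfswap probe, 16299 bases nearer the 3′ end, read 0.032, 0.032, 0.45 and -0.0081 in controls and 0.47, 0.0039, 0.21, 0.087 and 0.22 in cafeteria animals. There the groups overlapped throughout, with control 7 well above the other controls, and the log2 fold change was 0.071 ± 0.12 (SE).

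The classical SR proteins, which bind exonic enhancers and recruit U1 and U2AF, had no probe at an unadjusted p under 0.05. Srsf2 (Sfrs2), a nuclear speckle protein, had a log2 fold change of 0.087 ± 0.089 (SE) with log2 ratios of -0.091 to 0.27 over the 9 arrays. Srsf3 (Sfrs3), the smallest SR protein, which also escorts mRNA out of the nucleus, had -0.023 and 0.034 at its upstream and downstream probes. The downstream Srsf3 probe was the steadiest of all 88, spanning 0.13 from the lowest to the highest array. After loess its 95% interval was -0.10 to 0.17. With median centring its log2 fold change was 0.17, at the upper end of that interval, which therefore holds for the loess scaling only. Srsf9 (Sfrs9) had 0.11 ± 0.076 (SE). The 3 probes of Srsf5 (Sfrs5) gave 0.12, -0.15 and 0.13 from the 5′ to the 3′ end, with SEs of 0.11 to 0.16. Srsf1, Srsf6 and Srsf7 were not analysed here under this naming.

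Of the SR-related genes, Tra2b (Sfrs10), an activator of exons with purine-rich enhancers, had -0.010 and 0.043, and Srek1 (Sfrs12) had 0.10. Scaf4 (Sfrs15), which binds the tail of RNA polymerase II, had 0.0075 upstream and -0.10 downstream. Sugp2 (Sfrs14) is a SURP and G-patch domain protein. Its upstream probe had a log2 fold change of -0.23 ± 0.11 (SE, unadjusted limma p 0.0672), with cafeteria 13 at -0.53 and cafeteria 10 at -0.34 below all other arrays. Its downstream probe had 0.025 ± 0.12 (SE).

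The hnRNP family was the largest, with 17 genes and 36 probes, and 1 probe had an unadjusted p under 0.05 (2.78%, beside 5.71% of all probes). The median log2 fold change was 0.060, with 26 probes above 0 (72.2%, beside 52.6% of all). The probe past that threshold is the upstream one of Hnrnpr (Hnrpr), an RNA-binding protein close to Syncrip that acts in mRNA processing and transport. The coordinates of the upstream Hnrnpr probe in the files, chr5:155072514-155075933 on the plus strand, span 3420 bases, more than the probe itself can cover, as a probe over an exon junction would. Its log2 ratios were 0.65, 0.33, 0.44 and 0.35 in control animals 1, 4, 7 and 13 and 0.17, 0.46, -0.15, -0.62 and -0.60 in cafeteria animals 1, 4, 7, 10 and 13. Cafeteria 4 lay among the controls, cafeteria 10 and 13 far below every other animal, and the cafeteria SD of 0.47 was the larger one beside 0.15 in controls. The log2 fold change was -0.59 ± 0.21 (SE, 95% interval -1.06 to -0.12), with an unadjusted limma p of 0.0181 and an adjusted p of 0.694. Without control 1 the unadjusted p was 0.052. The difference was -0.73 with slide as a block, and -0.48 and -0.97 within the slides holding both groups. The downstream Hnrnpr probe, 11674 bases away, read 0.058, -0.22, 0.068 and 0.18 in controls and 0.14, 0.15, 0.094, 0.068 and -0.047 in cafeteria animals, which overlapped, and its log2 fold change was 0.060 ± 0.089 (SE).

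The core hnRNP proteins that coat nascent RNA had no probe at an unadjusted p under 0.05. Hnrnpa1 (Hnrpa1), which binds exonic silencers and opposes SR proteins, had 4 probes with log2 fold changes of -0.092, 0.21, 0.11 and 0.0057. The third and the fourth Hnrnpa1 probe overlap by position, so they are not separate evidence, and processed copies of this gene may share its signal. The second Hnrnpa1 probe read 0.88 in cafeteria 1 and no more than 0.21 elsewhere. Hnrnpa2b1 had 0.075 and 0.095, with its upstream probe ranging over -0.75 to 0.030 between animals. Hnrnpc (Hnrpc), which binds uridine tracts, had 0.13 and -0.042.

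Hnrnpd (Hnrpd), known as AUF1 for binding AU-rich elements in unstable mRNAs, had 0.11 and 0.12 at its probes, and its relative Hnrnpdl had 0.22 ± 0.16 (SE). Hnrnpk (Hnrpk), a poly(C)-binding protein, had 0.076 and 0.035. Its downstream probe spanned 0.17 over the 9 arrays, from -0.27 to -0.10. Hnrnpl (Hnrpl), which binds CA repeats, had 0.063 ± 0.085 (SE). Hnrnpll (Hnrpll), the paralog that drives exon skipping in the CD45 transcript of activated T cells, had 0.026 and -0.048. The 95% intervals of its probes, -0.17 to 0.22 and -0.27 to 0.18, include 0 and leave room for differences of that size. The upstream Hnrnpll probe was faint, with a mean log2 signal of 6.65. Its log2 fold change was -0.38 in the scanner software's log ratio, outside its interval. It was -0.068 without background correction and 0.0013 with median centring. The upstream interval therefore does not bound the difference there. Hnrnpu (Hnrpu), which ties RNA to chromatin, had 0.00064, -0.076 and -0.0031 at 3 probes. Hnrnpm had 0.092 and 0.079.

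Hnrnph1, Hnrnph3 and Hnrnpf bind G tracts, and Hnrnph1 (Hnrph1 in the files) had the highest log2 fold change of all 88 probes, 0.28 ± 0.13 (SE, unadjusted limma p 0.0522, adjusted 0.875). Its upstream log2 ratios were -0.50, -0.36, -0.52 and -0.12 in controls and -0.44, 0.14, -0.12, -0.086 and 0.0024 in cafeteria animals, so that cafeteria 1 lay among the controls and control 13 among the cafeteria animals. With slide as a block the value dropped to 0.045. Its downstream probe had 0.13 ± 0.075 (SE), Hnrnph3 had 0.17 ± 0.11 and Hnrnpf had 0.046 and -0.11.

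On the other side lay Hnrnpul1 (Hnrpul1), a relative of Hnrnpu linked to DNA damage signalling, and the upstream probe of Hnrnpa3. The upstream Hnrnpul1 probe read 0.075, 0.080, 0.0065 and -0.0010 in controls and -0.026, -0.079, -0.043, -0.15 and -0.20 in cafeteria animals, without overlap though by a narrow margin. Its log2 fold change was -0.14 ± 0.065 (SE, unadjusted limma p 0.0574), and the downstream probe had -0.35 ± 0.17 (p 0.0668), with cafeteria 10 the lowest at -0.67. Hnrnpa3 had -0.23 ± 0.10 (SE) at its upstream probe (unadjusted limma p 0.0522) and 0.072 and 0.059 at the others. Hnrnpab had 0.016, 0.022 and 0.12.

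The snRNP proteins (6 genes, 10 probes) had a median log2 fold change of 0.023, with 7 probes above 0 (70%, beside 52.6% of all probes). An unadjusted p under 0.05 was seen for 1 probe (10%, beside 5.71% of all). That probe is Snrpb, which encodes the Sm proteins B and B′ of the ring on every spliceosomal snRNA except U6. Snrpb read -0.24, -0.34, -0.42 and -0.15 in controls and -0.17, -0.035, -0.077, -0.0029 and -0.18 in cafeteria animals. Control 13 lay above cafeteria 1 and 13, so the groups overlapped, and the log2 fold change was 0.19 ± 0.077 (SE, unadjusted limma p 0.0306, adjusted 0.79). It was 0.11 with slide as a block, and 0.068 and 0.15 within the slides holding both groups. The unadjusted limma p was 0.465 with that block, and rose above 0.05 when any of controls 4 and 7 or cafeteria animals 4, 7 and 10 was left out (0.055 to 0.088). Snrpn, which encodes a near-identical Sm protein from an imprinted locus, had 0.021 ± 0.080 (SE), and the probes may not keep these paralogs apart. Snrpd1, another ring protein, had -0.14, -0.044 and 0.0064 from the 5′ to the 3′ end. Of the proteins particular to 1 particle, Snrnp70 (Snrp70) of U1 had 0.040, 0.11 and 0.025, Snrpa of U1 had 0.11 ± 0.074 (SE) and Snrpb2 of U2 had -0.081 ± 0.13 (SE). Snrpd2, Snrpd3, Snrpe, Snrpf and Snrpg were not analysed here under this naming.

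The proteins that recognise the branch point and the 3′ splice site (8 genes, 11 probes) had a median log2 fold change of 0.041. Of their probes, 7 lay above 0 (63.6%, beside 52.6% of all probes). Only the Sf3a2 probe had an unadjusted p under 0.05 (9.09%, beside 5.71% of all). Sf3a2 is part of the SF3a trimer of the U2 particle, and its probe lies at chr7:10420323-10420382 on the minus strand of rn4. Its log2 ratios were -0.32, -0.22, -0.37 and -0.23 in controls 1, 4, 7 and 13 and -0.15, -0.050, -0.070, -0.054 and -0.16 in cafeteria animals 1, 4, 7, 10 and 13. Every cafeteria animal was above every control, with little spread in either group. The log2 fold change was 0.19 ± 0.065 (SE, 95% interval 0.042 to 0.33), a fold of 1.14, with an unadjusted limma p of 0.0162 and an adjusted p of 0.669. It was 0.17 and 0.18 within the slides holding both groups. With slide as a block it was their mean, 0.17, with an unadjusted limma p of 0.258.

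The other proteins of the SF3 complexes had no probe at an unadjusted p under 0.05. In the trimer, Sf3a1 had 0.066 ± 0.10 (SE), and Sf3a3 had -0.21 ± 0.12 (unadjusted limma p 0.0939) with cafeteria 10 and 13 lowest at -0.26 and -0.16. Sf3b1, which clamps the branch point helix, had -0.038, 0.15 and 0.030 along its transcript. Sf3b2 had -0.26 ± 0.15 and -0.15 ± 0.15 (SE), with cafeteria 10 at -0.61 upstream. Sf3b3 had 0.084, Sf3b4 0.041 and U2af1l4, a relative of the small U2AF subunit, 0.084. U2af1 and U2af2 were not analysed here under this naming.

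The Prp factors (9 genes, 15 probes), named after yeast mutants in pre-mRNA processing, had a median log2 fold change of 0.037. Of their probes, 9 lay above 0 (60%, beside 52.6% of all probes). At an unadjusted p under 0.05, 2 probes were lower in cafeteria animals (13.3%, beside 3.82% of all). Prpf39 is a U1-associated factor, and its downstream probe was among these. This probe read 0.23, 0.25, 0.42 and 0.059 in controls and 0.12, -0.13, 0.061, -0.30 and -0.048 in cafeteria animals, with a log2 fold change of -0.30 ± 0.10 (SE, unadjusted limma p 0.0152, adjusted 0.658). Control 13 lay within the cafeteria range. The difference was -0.12 and -0.36 within the slides holding both groups. With slide as a block it was their mean, -0.24, with an unadjusted limma p of 0.161. The upstream Prpf39 probe had -0.16 ± 0.10 (SE), and upstream minus downstream the groups differed by 0.14 ± 0.16 (SE, unadjusted limma p 0.413).

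The catalytic and tri-snRNP factors had no probe at an unadjusted p under 0.05. Prpf8, the scaffold of the active centre, had 0.031 and 0.10, and Prpf4b, a kinase of splicing factors, had 0.053 and 0.080. Both Prpf4b probes were above the reference in all 9 animals (0.24 to 0.45 upstream). The U4/U6 proteins Prpf3, Prpf4 and Prpf31 had -0.14 and 0.068, 0.037, and -0.019. Prpf38a had 0.11 upstream and -0.14 downstream. Prpf19, the ubiquitin ligase that stabilises the active spliceosome, had 0.27 ± 0.21 (SE), a wide error that came with a control 1 value of -1.25 beside -0.46 to -0.14 in the other controls. Prpf6 was not analysed here under this naming.

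Because many of these genes have several probes, the most upstream and the most downstream probe of a gene could be compared within each animal. This was possible for 30 of the 49 genes, with 80 to 30087 bases between probe midpoints (median 4466), and the remaining 19 genes had 1 probe each. For 3 genes, Sfswap and Hnrnpr among them, the upstream probe was low in cafeteria animals relative to the downstream one, while no gene had the opposite pattern at an unadjusted p under 0.05. The same model was fitted to all 2834 genes of the array with such a pair. There 8.29% had a lower upstream minus downstream ratio in cafeteria animals at that threshold and 1.31% a higher one, 9.6% in either direction, so that 3 of 30 (10%) lower and 0 of 30 higher stand close to the array as a whole. No gene of the 30 passed the adjusted threshold (background 0%), and the lowest adjusted p was 0.220.

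In Sfswap the upstream minus downstream difference was 0.51, 0.28, -0.30 and 0.24 in controls 1, 4, 7 and 13 and -0.39, -0.032, -0.37, -0.49 and -0.61 in cafeteria animals 1, 4, 7, 10 and 13. Control 7 lay among the cafeteria animals and the other controls above all of them. The cafeteria minus control value was -0.56 ± 0.16 (SE, 95% interval -0.92 to -0.20, unadjusted limma p 0.00554), or -0.81 with slide as a block. In Hnrnpr the differences were 0.59, 0.55, 0.37 and 0.17 in controls and 0.026, 0.31, -0.25, -0.69 and -0.55 in cafeteria animals. Cafeteria 4 exceeded control 13, and the other cafeteria animals were below all controls. The value was -0.65 ± 0.19 (SE, 95% interval -1.07 to -0.23, unadjusted limma p 0.00582), or -0.71 with the block.

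The groups did not overlap for 1 of the 30 genes, in the lower direction (background 3.18% lower, 0.529% higher). Sfswap and Hnrnpr kept an unadjusted limma p under 0.05 when any 1 array was left out, the highest being 0.0205. The count of lower genes was 5 without control 7 or cafeteria 1, and without cafeteria 13 there was 1 higher gene. The share over all pairs is not given for these fits, so a shift of these genes and one of the whole array cannot be told apart.

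**Figure D2:**
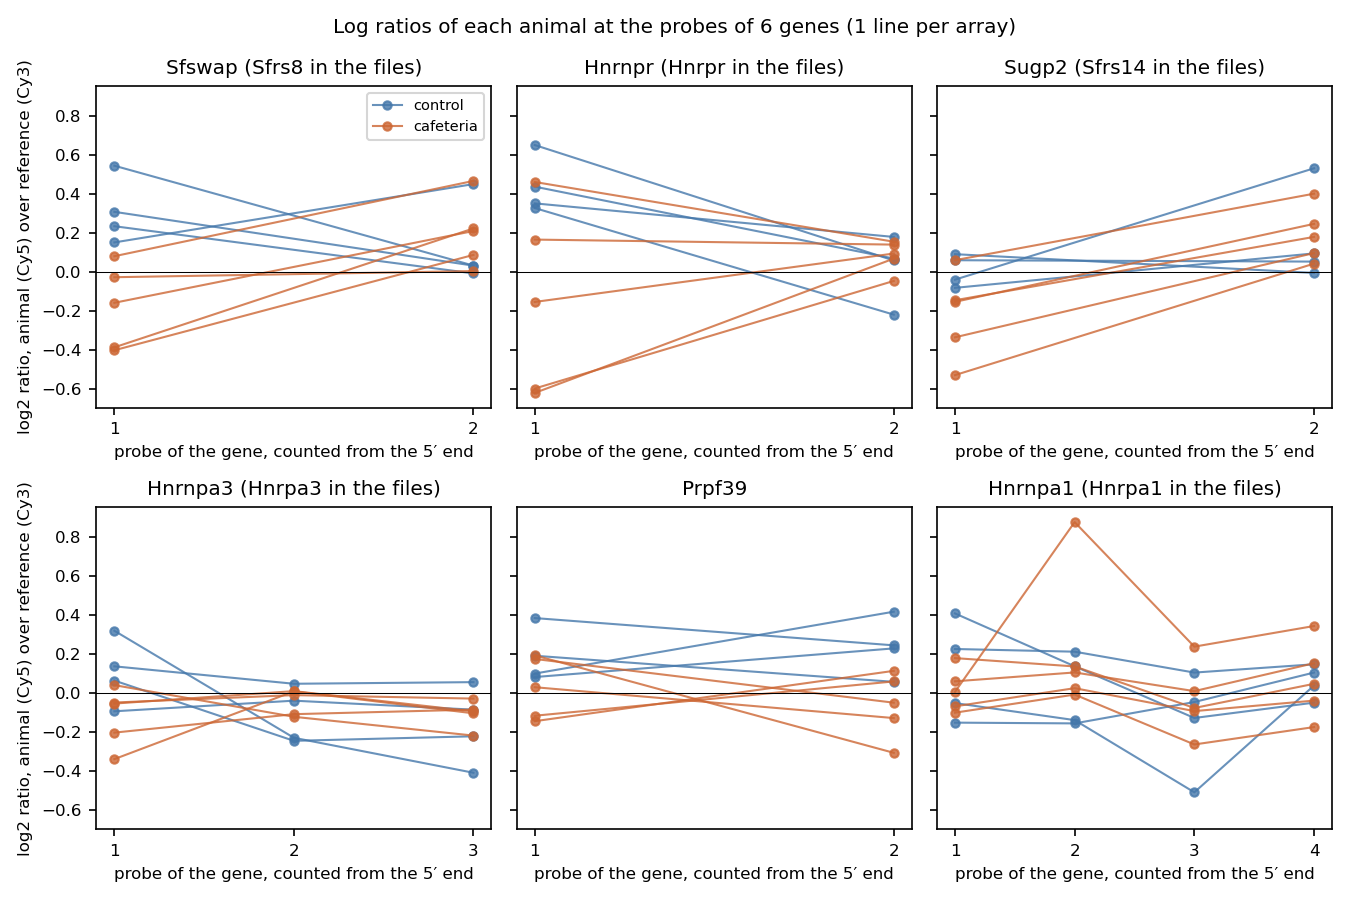
Log2 ratio of animal over reference (y axis) at the probes of 6 genes, numbered from the 5′ end (x axis), with 1 line per array, blue for the 4 control and orange for the 5 cafeteria animals. At probe 1 of Sfswap every control is above every cafeteria animal, and the groups overlap at probe 2, where the log2 fold change is 0.071. Prpf39 and Hnrnpa1 lack that pattern.

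The next genes in order had intervals that include 0. Prpf3 had a difference of -0.21 ± 0.10 (SE, unadjusted limma p 0.0725), Sugp2 -0.25 ± 0.13 (0.0744) and Hnrnpa3 -0.29 ± 0.15 (0.086). On the positive side Prpf38a had 0.25 ± 0.13 (0.0889) and Hnrnpc 0.18 ± 0.11 (0.13). The narrowest range was that of Snrnp70, where the difference stayed within 0.22 over the 9 arrays, and Srsf5, Hnrnpu, Hnrnpm, Hnrnpd, Snrnp70 and Hnrnpa2b1 had values between -0.020 and 0.015. Over the 30 genes the median was -0.024, beside -0.012 for all pairs, with 18 below 0 and 12 above it (40%, beside 45.9% of all pairs above 0). The median over all 2834 pairs was taken for each array as a single value per animal. It was -0.046 ± 0.035 (SD, n = 5) in cafeteria and -0.019 ± 0.040 (SD, n = 4) in control animals, and a two-sided exact permutation test over all splits of the arrays into 4 and 5 gave p = 0.317, where the smallest possible is 0.00794.

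**Figure D3:**
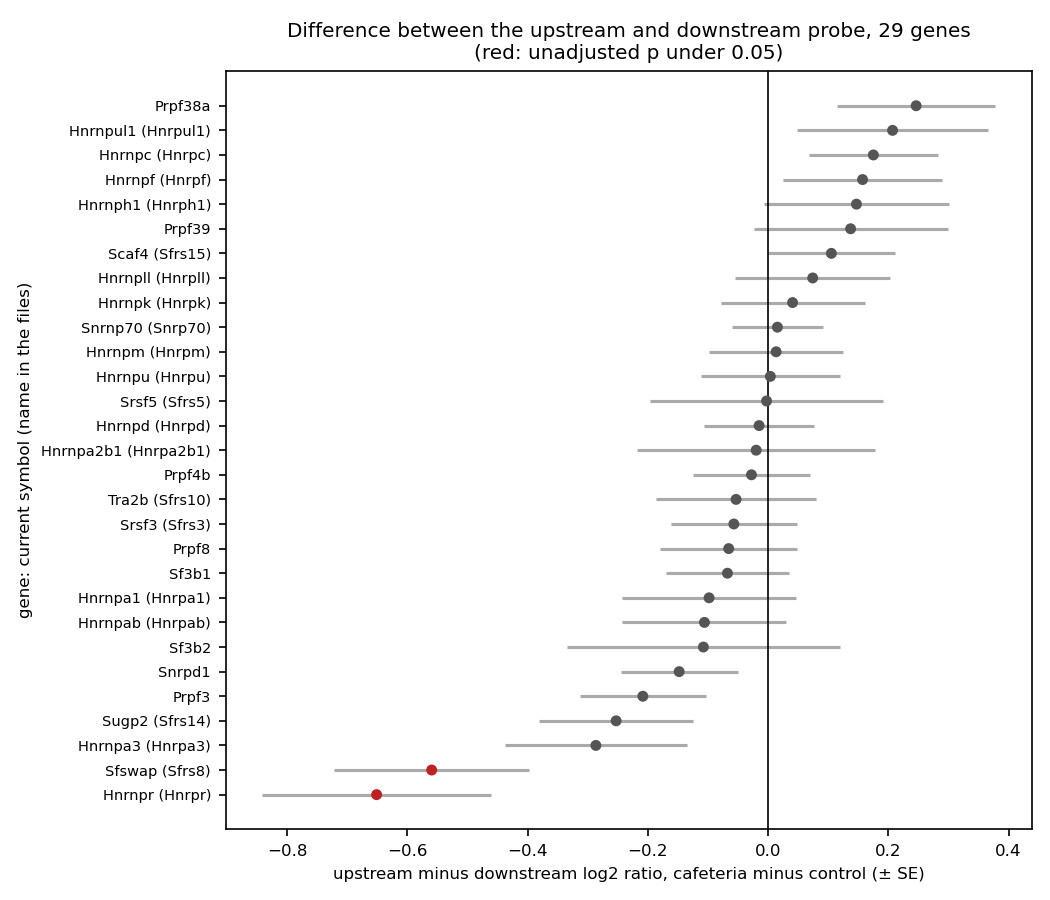
Upstream minus downstream log2 ratio, cafeteria minus control (x axis), for 29 genes with a pair of probes (y axis), as estimate and SE from limma. Hnrnpr at -0.65 and Sfswap at -0.56 (red, unadjusted p under 0.05) lie apart from the next plotted gene at -0.29, and the highest is Prpf38a at 0.25.

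Probes whose coordinates cross more than 61 bases, as those over an exon junction do, were 22 of the 88. At an unadjusted p under 0.05, 2 of these 22 were lower and none was higher (9.09% and 0%), beside 5.5% and 2.33% of the 4470 such probes on the array. The 62 probes that span 60 or 61 bases gave 2 higher and 2 lower (3.23% each), beside 1.9% and 3.82% of all probes of any span. The share over all probes of that span is not given. Both probes of the Sfswap pair span 60 bases, whereas the upstream Hnrnpr probe spans 3420. Whether a junction bears on the upstream minus downstream differences was not tested. The annotation at hand is of another genome build, and exons, introns and untranslated regions under the probes were not analysed here.

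A probe spanned 0.13 to 1.27 from its lowest to its highest array, with a median of 0.47 beside 0.46 for all probes. For the upstream minus downstream differences the median range was 0.63, beside 0.52 for all pairs. Control 7 gave the lowest value of 26 of the 88 probes, more often than any other array, and the highest of 13. Cafeteria 10 was lowest for 17 probes and highest for 6, whereas cafeteria 4 was lowest for 2 and highest for 14 and cafeteria 7 lowest for 1 and highest for 12. The 5 probes with a range above 1 included those of Hnrnpr, Prpf19, Hnrnpul1 and Hnrnpa1, at the upstream end for Hnrnpr, the downstream end for Hnrnpul1 and the second of 4 for Hnrnpa1.

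**Figure D4:**
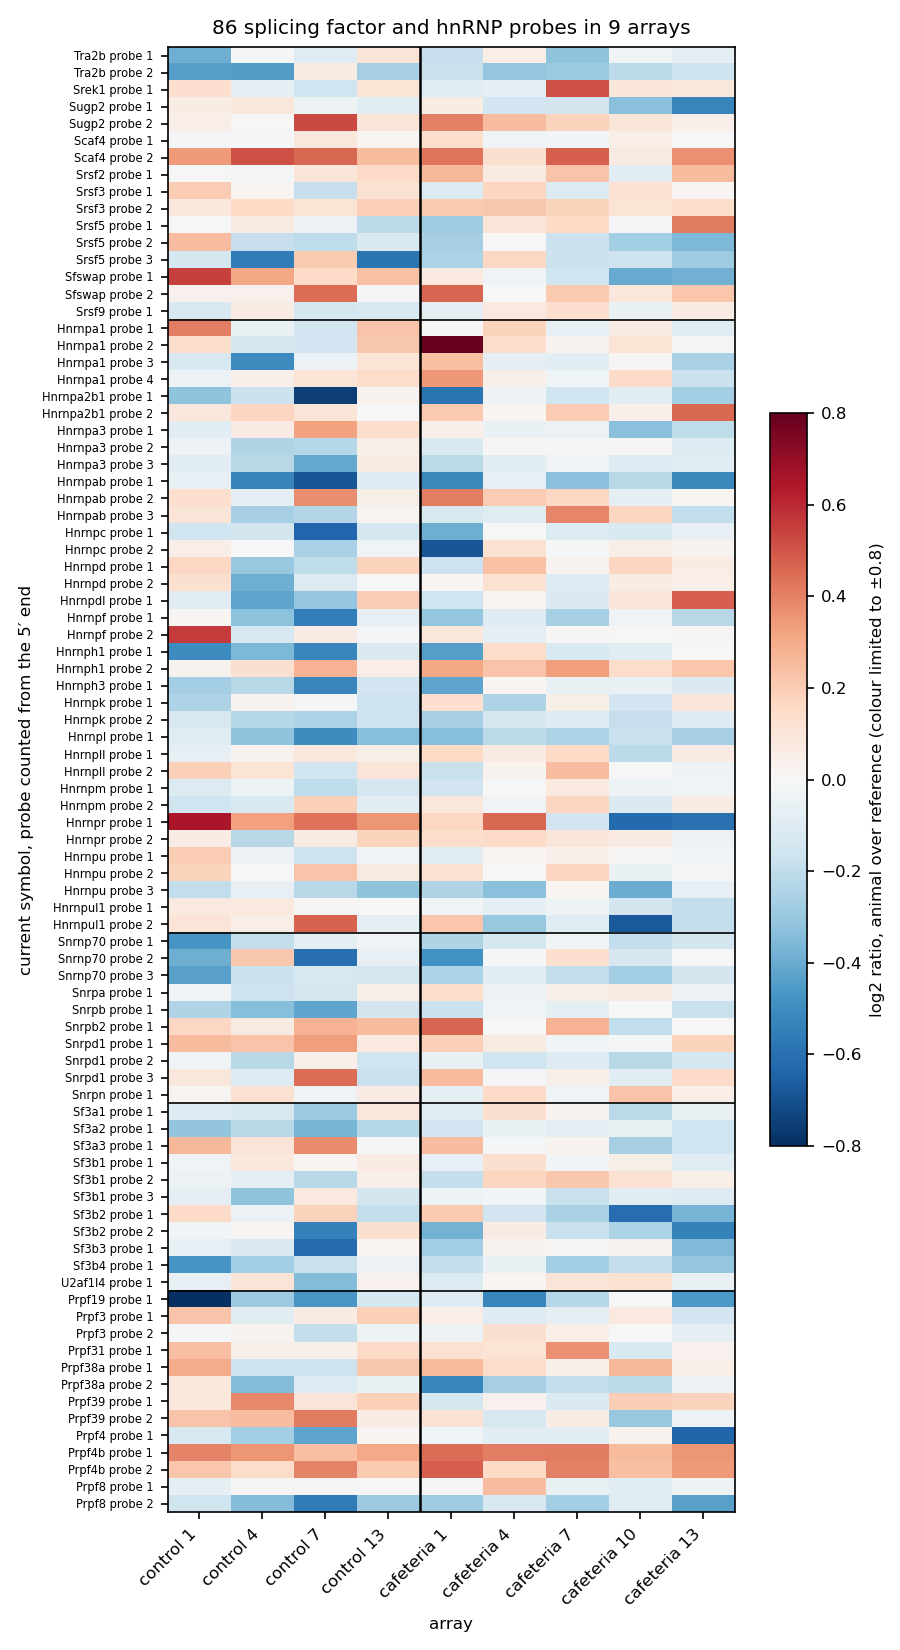
Log2 ratio over the reference (colour, red above and blue below it, limited to 0.8 either way) of 86 probes (rows, by family, divided by lines) in the 4 control and 5 cafeteria arrays (columns). Rows of 1 gene often differ from each other, as in Sfswap and Hnrnpr. The darkest cells include Prpf19 in control 1 at -1.25 and the second Hnrnpa1 probe in cafeteria 1 at 0.88.

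The rest of the splicing machinery was taken from 8 lists of genes outside the naming rule, of which 138 of 175 genes were on the array with 179 probes tested. None passed the adjusted threshold. At an unadjusted p under 0.05, 4 were higher and 15 lower in cafeteria animals (2.23% and 8.38%, beside 1.9% and 3.82% of all probes). Of the 179 probes, 110 lay above 0 (61.5%, beside 52.6% of all). The genes named here were picked after their values were seen. The SR-related proteins and coactivators held 5 lower probes of 17. Among these was Srrm1, a coactivator that bridges SR proteins on exons, with log2 fold changes of -0.53 ± 0.12 and -0.22 ± 0.10 (SE, unadjusted limma p 0.00134 and 0.0477). Acin1, an exon junction component, was another, with -0.46 ± 0.14 (0.00619).

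Other RNA-binding regulators gave 6 lower and 1 higher of 44 probes. Matr3, a nuclear matrix protein, had -0.42 ± 0.10 (SE, unadjusted limma p 0.00161) at its lowest probe. Its other probes had -0.12 and -0.059 (0.187 and 0.405). Khsrp, a KH domain protein of mRNA decay, had -0.36 ± 0.10 (0.0041). Syncrip, the relative of Hnrnpr, had -0.29 ± 0.12 (0.0319) at its lower probe and -0.20 ± 0.10 (0.0848) at the other. The 8 probes of SR kinases and their partners all lay above 0, beside 52.6% of all probes. This was after loess, the only scaling run for these lists. The median of the 8 probes was 0.13, and 1 of them, Srpk3, had an unadjusted p under 0.05. The remaining lists were those of spliceosomal helicases (0 higher and 0 lower of 15 probes), LSm and other snRNP proteins (0 and 1 of 31), Prp19 complex proteins (1 and 1 of 28), exon junction and export proteins (1 and 2 of 14) and cleavage and polyadenylation proteins (0 and 0 of 22). The last list includes a probe named Clp1 in the files whose current symbol is Hexim1, so it may not belong there. Its log2 fold change of -0.25 was the lowest of that list. Of 36 genes of the 8 lists with a pair of probes, 3 had a lower upstream minus downstream ratio in cafeteria animals and 0 a higher one. These are 8.33% and 0%, beside 8.29% and 1.31% of all 2834 pairs. As among the 30 genes above, the counts stand close to the array as a whole.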

How the data were processed

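RNA of 9 rats was hybridised to Agilent rat whole-genome arrays, 1 per animal. The scanner files deposited by the authors give mean spot and median local background intensity in both dyes, read with Agilent Feature Extraction 9.5.1.1, together with the software's dye-corrected log10 ratio, Cy5 against Cy3, per the file headers. The authors also deposited a table on a log2 scale; its values followed the Cy5 signal (rank correlation 0.993 to 0.999), its column medians were 9.40 to 9.69, so they were not centred, and what part the Cy3 reference had in it is not known. The alternatives use it.

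From the intensities, background was corrected by normexp (offset 50), ratios were normalized by loess within each array with control spots unweighted, spots marked by the scanner software as outliers were left out, and spots of a probe were averaged. The normexp estimate left out 1 to 406 spots per array and dye whose local background was marked as non-uniform. With them, a few spots far below their background raised the fitted background SD to 315 to 997 on control 4 and cafeteria 4 and narrowed the log ratios there; this step was chosen after the data were seen. Probes with Cy5 well above background on at least 4 arrays were tested, 25798 in all. Cafeteria and control were compared with limma 3.58.1 (R 4.3.3, statmod 1.5.0, package data.table version 1.17.8; 7 residual and 3.42 prior degrees of freedom, 3.82 for pairs) with Benjamini-Hochberg adjustment over all probes, at a threshold of 0.05. Figures used Python 3.11.15 and matplotlib 3.10.9. For each gene with probes on 1 chromosome and strand, 60 to 200000 bases apart between midpoints, the most upstream minus the most downstream log ratio was fitted likewise over 2834 genes. The fits were tested on simulated data. Array signal gives no count, so the number of arrays limits the precision.

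Positions are rn4, per the file headers; symbols were updated from a RefSeq table (19620 probes matched, 47.8%). Genes were named if a probe passed the adjusted threshold, if among the 8 per direction with the smallest p at their brightest probe, if among the 8 with the smallest p for upstream minus downstream, or by role. Other genes are named here for their family. Some genes that enter the counts are not reported here by name or plotted by name. Members and lists were chosen with earlier results of these data known. The alternatives were other background, scaling, source, filter, flag, slide, replicate number, weight, prior and pair rules, and leaving out each array. Slides are numbered from the files: 7 slides, of which slide 3 (control 1, cafeteria 1) and slide 5 (control 13, cafeteria 10) held both groups. Only these slides inform a difference with slide as a block. Animals with the same number in both groups did not deviate together (correlation -0.18 to 0.13), so they were not paired. Probe sequences were not used here.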

Additional observations from a re-analysis of the deposited data

Results flagged for a closer look

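A value was marked here when the highest or lowest animal of a group stood apart from the rest of its group by Dixon's criterion. Of 236 groups of values checked, 14 were marked, close to the 5% that chance gives. The log2 ratios were, in cafeteria 1, 0.88 at the second Hnrnpa1 probe and -0.68 at the downstream Hnrnpc probe, where the next animals read 0.14 and -0.016. They were -0.64 at the upstream Hnrnpc probe in control 7 (next -0.16), -0.21 at the upstream Hnrnpll probe in cafeteria 10 (next 0.066) and -0.64 at the Prpf4 probe in cafeteria 13 (next -0.092). The upstream Prpf8 probe was marked in both groups, at -0.081 in control 1 and 0.25 in cafeteria 4. The third Srsf5 probe read 0.16 in cafeteria 4, the downstream Sfswap probe 0.45 in control 7, the Srsf9 probe 0.060 in control 4 and the third Snrnp70 probe -0.43 in control 1.

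Of the upstream minus downstream differences, 3 were marked: Prpf3 in control 4 at -0.11, Hnrnpc in cafeteria 1 at 0.29 and Prpf4b in cafeteria 4 at 0.25. None of these is a probe with an unadjusted p under 0.05, although the Sfswap value enters the Sfswap pair.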

How the results depend on the processing

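No probe and no pair of the splicing genes passed an adjusted p of 0.05 in any of the 14 alternatives for probes or 17 for pairs, nor when 1 array was left out. At an unadjusted p under 0.05, the 2 higher probes became 14 with median centring (6.71% of all probes), 15 with the authors' values (10.9% of all), 3 with these centred (1.81%), 1 in the scanner software's log ratio, 0 with slide as a block and 1 with the replicate block, and 1 to 5 when 1 array was left out; the 4 lower probes became 4 to 10 then. Higher probes without overlap, 1 in the report, numbered 6 with the authors' values and also after median centring, 0 with Cy5 alone and with all spots in the background estimate, and 1 to 5 with 1 array left out. The 2 lower ones numbered 1 after median centring, in the scanner software's log ratio and without background correction, 0 in the authors' values and in Cy5 alone, and 2 to 5 with 1 array left out. No share over all probes stands beside these counts without overlap, which fewer arrays alone make more frequent. The median log2 fold change, 0.039, was 0.16 with median centring, 0.19 with the authors' values, 0.072 with these centred, and -0.037 with slide as a block. Lower pairs, 3 in the report, were 5 with Cy5 alone, with the authors' values, centred or not, and with array weights, and 3 to 5 with 1 array left out. Higher pairs were 0 to 1. No share over all pairs stands beside these pair counts, so they may follow the whole array. The causes were not tested. The pairs of Sfswap and Hnrnpr kept an unadjusted p under 0.05 in all 17 alternatives (replicate block -0.53 and -0.54). Sf3a2 and the downstream Prpf39 probe lost it in 5 of 14 (highest p 0.258 and 0.161, both with slide as a block) and Snrpb in 4, the highest 0.465. The slide block rests only on the animals of the slides that held both groups, so a lost p there comes with fewer animals. The replicate block, over numbers 1, 4, 7 and 13, joins animals that share only a number. The values centred anew and the estimate from all spots were chosen after seeing the data.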
